A study of Mus musculus with 3 samples.

Results

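The genes described here are the mouse semaphorins, plexins, ephrins, Eph receptors, Slits and Robos, which carry most of the contact and diffusible signals known as guidance cues. They were picked by symbol alone, as every gene of the table named Sema3 to Sema7, Plxna to Plxnd, Efna or Efnb, Epha or Ephb, Slit1 to Slit3, or Robo1 to Robo4. The rule uses no measured values, but it was chosen with earlier results of these data known. This gave 58 of 55422 genes: 20 semaphorins, 9 plexins, 8 ephrins, 14 Eph receptors, 3 Slits and 4 Robos. Of these, 45 had enough counts to be tested and 13 did not.

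Semaphorins are secreted or membrane-bound ligands that act through plexins, and most secreted class 3 semaphorins need a neuropilin as the binding partner of the plexin. Ephrins are tethered to the cell surface and bind Eph receptors on touching cells, with signals running in both directions, and Slits are large secreted ligands of Robo receptors. All of these systems steer axons and growing vessels, and in bone they are known from exchanges between osteoclasts and osteoblasts, with Sema4d as an osteoclast product, Sema3a as an osteoblast-lineage product, ephrin-B2 and EphB4 on opposing cells, and Slit3 as a skeletal ligand for endothelial Robos.

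The study looked for septoclasts (SCs), mononuclear cells that resorb cartilage where the growth plate meets newly formed bone, among the stromal cells of the long-bone metaphysis of untreated mice at the age of 3 weeks, labelled C57BL/6. 2 droplet libraries came from metaphyseal cells depleted of lineage-positive, CD45+ and CD117+ cells, and are called metaphyseal replicates 1 and 2; the methods name C57BL/6J males for them. The third library held Pdgfra-GFP+ cells, sorted on the nuclear GFP of a heterozygous Pdgfra-H2B-GFP knock-in allele that marks cells using the Pdgfra promoter, which the methods describe for metaphyseal cells of femur and tibia of male mice. The study's Results add the epiphysis to the region these sorted cells came from, so the region may differ between the libraries. The sort should hold few endothelial or blood cells, and its cells carry 1 knock-in copy of Pdgfra. Nothing in the labels says that the libraries came from separate animals, so the p-values below measure only the spread between these libraries.

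The libraries held 25243314, 22082735 and 91747759 unique molecular identifiers (UMIs, which tag single RNA molecules), and 2389, 2011 and 11319 cells passed the filters of the study, with medians of 6257, 6458 and 5354 UMIs per cell. Between 0 and 10 cells stood at the same barcode position of the deposited counts in any pair of libraries. Barcode sequences were not compared. Cells were assigned to populations by markers, none of them a guidance gene, and 83.7% to 91.6% of cells were assigned; a population name means only that its cells carry those markers. The populations used most below are metaphyseal mesenchymal stromal cells (mpMSCs, by Postn, Wif1, Aspn and Mmp13; 71, 57 and 1138 cells), SCs (14, 16 and 233 cells), Lepr+ stromal cells of the marrow (709, 672 and 4109), osteoblasts (139, 129 and 1431), growth-plate chondrocytes (37, 35 and 1414) and, from the metaphyseal libraries only, arterial (66 and 45), metaphyseal (437 and 357) and sinusoidal (383 and 319) endothelial cells (ECs). As a check of names with genes outside the gate, Fabp5, which codes for a fatty acid-binding protein known from SCs, stood at 343, 1268 and 1918 CPM in SCs against 108, 61.9 and 123 in mpMSCs, and Sox17, an arterial transcription factor, at 549 and 523 in arterial ECs against 98.9 and 89.1 in metaphyseal ECs. SCs were the smallest of these populations, and many lay at the edge of the gate: 10 of 14, 7 of 16 and 117 of 233 carried only the minimum of 2 raised markers.

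A level is given in CPM, the UMIs of a gene scaled to a total of 1000000 UMIs over all cells of a population in a library. Levels stand in the order metaphyseal replicate 1, replicate 2, Pdgfra-GFP library, or as the lowest, median and highest of a group where that is said. The reads come from the 3′ end, so a transcript is counted once whatever its length and levels are not divided by length, but capture can still differ from gene to gene. Fold changes are log2 values from edgeR's quasi-likelihood test on these sums after TMM scaling, which corrects each sum for a few very abundant genes. Levels have no such scaling. The standard error beside a fold change was derived from the fold change and the F statistic of the test. The p-values were adjusted by Benjamini-Hochberg over 13334 genes, with a threshold of 0.05. A gene is called when it passes that threshold.

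The leading ligands and receptors, those with the highest mean level of their family, differed between the populations, as the map of mean levels shows. Among ECs the leading receptors were Plxnd1, the plexin of endothelial cells, Robo4, the endothelial Robo, and Ephb4, known from venous endothelium. In metaphyseal ECs Plxnd1 stood at 631 and 699.98, Robo4 at 175 and 187 and Ephb4 at 172 and 198 CPM. The leading ephrin of every endothelial subtype was Efna1, and the leading semaphorin was Sema3g in arterial ECs and Sema6d in metaphyseal and sinusoidal ECs. Slits were nearly absent there, with 8 UMIs of Slit2 and 7 of Slit3 in all 6 endothelial sums of the metaphyseal libraries.

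The highest Slit levels were in mesenchymal cells. Slit3 stood at 146, 159 and 99.8 CPM in mpMSCs and 138, 137 and 86.9 in Lepr+ stromal cells, and Slit2 at 127, 111 and 76.8 in mpMSCs, 137, 183 and 87.5 in SCs and 147, 97.2 and 54.3 in late osteoblasts, which carry osteocyte markers. Their leading Robo varied: Robo2 in mpMSCs (45.2, 41.3 and 13.4) and osteoblasts (99.8, 80.5 and 38.2), and Robo1 in Lepr+ stromal cells (26.7, 33.6 and 18.4) and SCs (34.3, 35.4 and 20.5). Efnb1, a B-type ephrin, led the ephrins in mpMSCs (104, 148 and 149.97), Lepr+ stromal cells (151, 143 and 129), SCs (185, 177 and 156) and osteoblasts (84.7, 81.3 and 59.7), whereas Efna1 led in growth-plate chondrocytes (28.7, 42.9 and 38.7).

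The leading Eph receptor of the mesenchymal cells was low and differed from population to population. By mean level it was Epha3 in mpMSCs (21.4, 23.8 and 24.1 CPM) and SCs (41.2, 35.4 and 13.3), Ephb4 in Lepr+ stromal cells (27.4, 25.9 and 19.3), Epha2 in osteoblasts (25.2, 29.4 and 20.5) and late osteoblasts (16.8, 23.6 and 10.9), and Ephb2 in growth-plate chondrocytes (10.1, 32.9 and 8.09). The leading semaphorins were Sema5a in mpMSCs (90.5, 95.3 and 47.99) and late osteoblasts (77.9, 116 and 105), Sema7a, a GPI-anchored semaphorin, in SCs (68.6, 112 and 94.6), Sema6d in Lepr+ stromal cells (151, 145 and 64.6), and the secreted Sema3d in osteoblasts (78.96, 96.02 and 76.1) and growth-plate chondrocytes (21.9, 75.9 and 64.9). The leading plexins were Plxna2 in mpMSCs (155, 267 and 179) and Lepr+ stromal cells (238, 251 and 148), Plxnd1 in SCs (240.1, 136 and 104), and Plxnb2 in osteoblasts (52.8, 50.7 and 29.9), late osteoblasts (35.8, 39.4 and 31.7) and growth-plate chondrocytes (50.6, 50.1 and 32.2). By highest mean over libraries, SCs and mpMSCs had the same leading Eph receptor and ephrin, and different leading members in the other 4 families. Several of these orders were narrow. For Slits, the Slit2 and Slit3 levels of these cells overlapped. In mpMSCs Epha2 lay above Epha3 in metaphyseal replicate 1 and the Pdgfra-GFP library, and Robo1 above Robo2 in the Pdgfra-GFP library. In SCs Plxna2 lay above Plxnd1 in metaphyseal replicate 2.

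**Figure D1:**
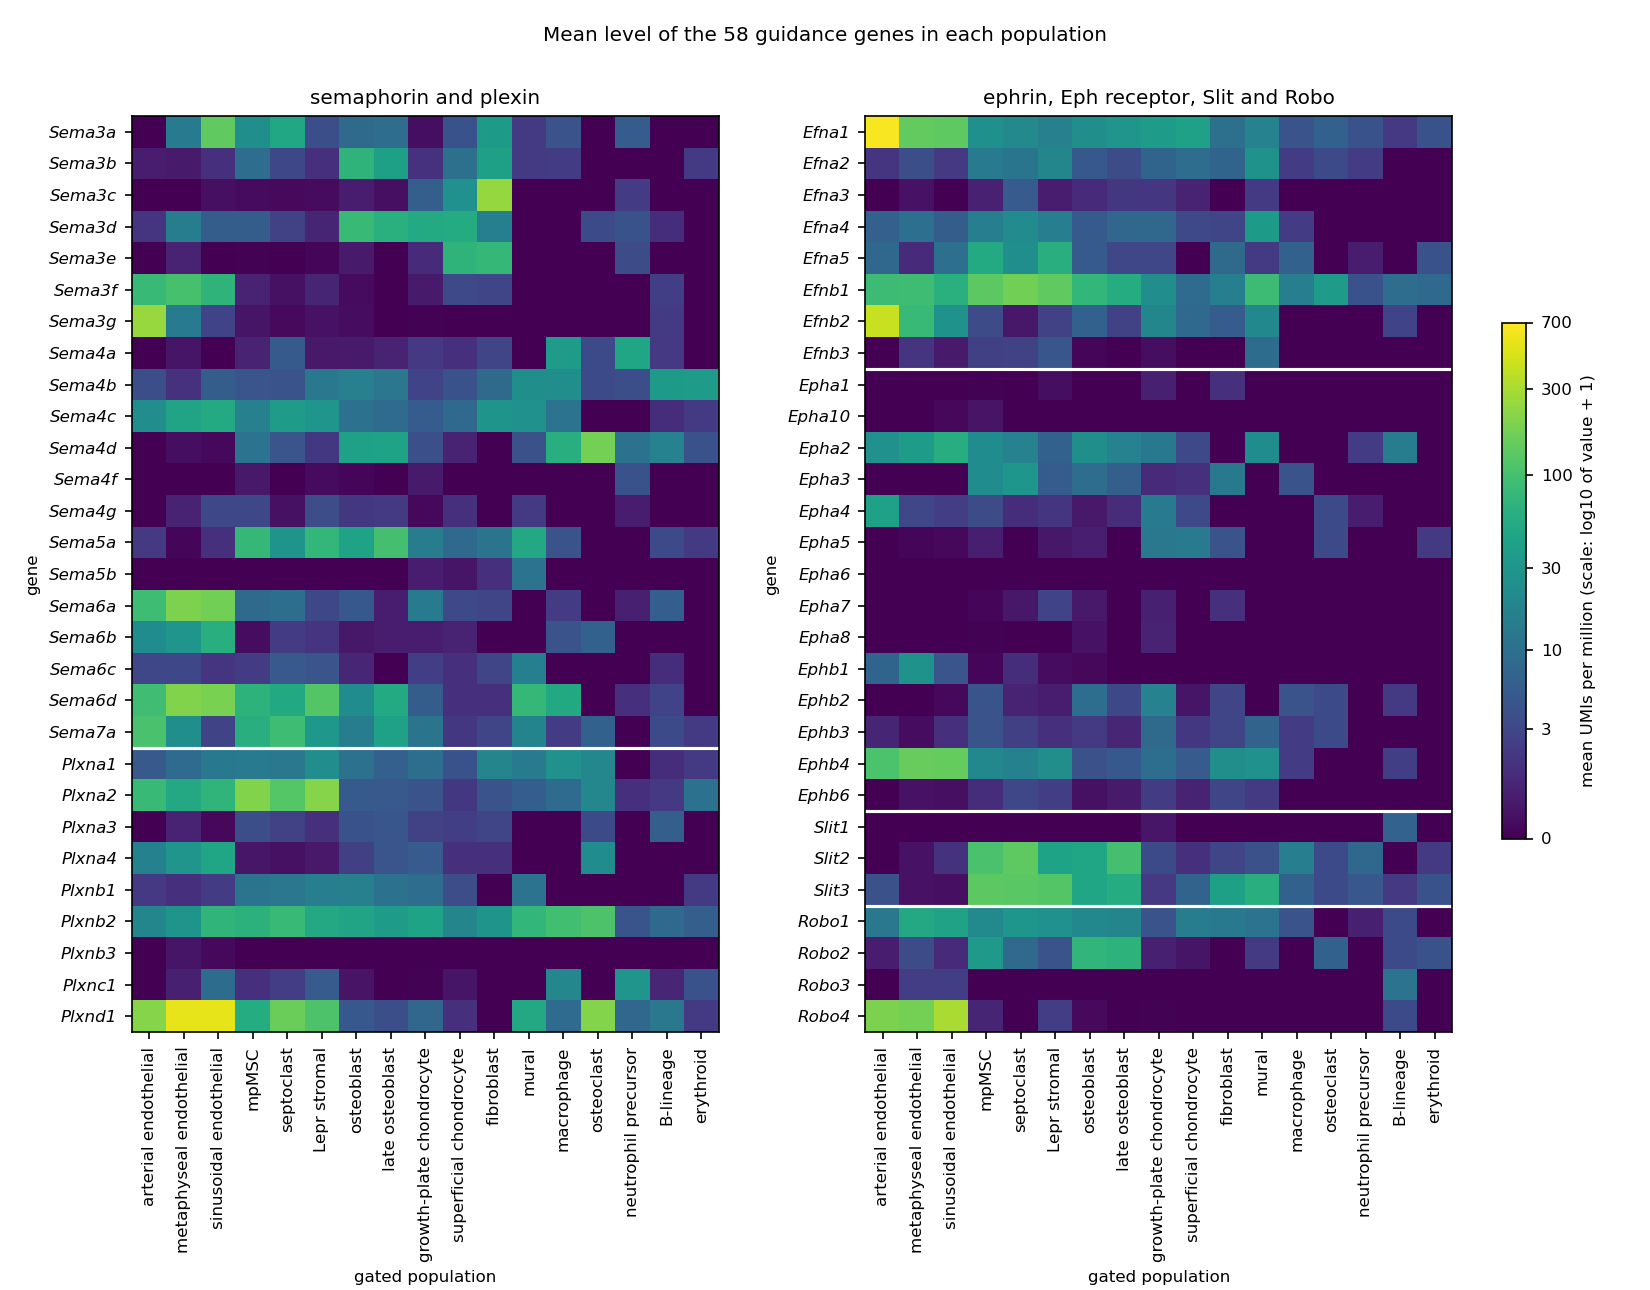
Mean level of each of the 58 genes (rows) in each gated population (columns), as CPM averaged over the libraries that hold the population, on a log colour scale. The endothelial columns carry the high Robo4, Plxnd1, Ephb4 and Efna1, and the mpMSC, SC and Lepr+ stromal columns the high Slit2, Slit3 and Efnb1.

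Some populations had enough cells only in the Pdgfra-GFP library, and their levels have no replicate check. Osteoclasts and macrophages there are blood-lineage cells, of which the GFP sort should hold few, and their sums were left out of the test. Fibroblasts (110 cells) carried Sema3c, a secreted class 3 semaphorin, at 245 (95% Poisson interval 209.7 to 285) CPM, and superficial chondrocytes (378 cells) carried Sema3e, a direct Plxnd1 ligand, at 69.1 (95% Poisson interval 58.4 to 81.2); the intervals cover counting error only. Osteoclasts (24 cells) held Sema4d at 176 (95% Poisson interval 132 to 230.1) and Plxnd1 at 209 (95% Poisson interval 161 to 267), and macrophages (71 cells) held Plxnb2, a receptor of class 4 semaphorins, at 94.9 (95% Poisson interval 68.7 to 128). For comparison, Sema3c stood at 0, 0 and 0.637 in mpMSCs and Sema4d at 10.7, 15.9 and 7.13. Sema3e was not particular to superficial chondrocytes, as it stood at 77.9 in fibroblasts. Sema3c stood at 26.6 in superficial chondrocytes. The 3 superficial chondrocyte markers came to 4345 CPM in fibroblasts and 13262 in superficial chondrocytes. Of the blood and vessel wall cells that were left, neutrophil precursors led with Plxnc1 (26.7, 52.4 and 8.36) and Sema4a (47.5, 50.003 and 45.97), B-lineage cells with Sema4b (18.4, 49.1 and 34.97), and mural cells with Sema6d (113 and 40.95) and Efnb1 (70.4 and 106; metaphyseal replicate 1 and the Pdgfra-GFP library).

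At the other end, 4 genes had fewer than 10 UMIs in all cells: Epha6 had 0, Epha10 had 2, Plxnb3 had 6 and Slit1 had 7. The other untested genes were Efna3, Epha1, Epha7, Epha8, Ephb6, Plxna3, Sema4f, Sema4g and Sema5b. Robo3, Sema4a and Sema6c were tested and called in none of the 7 comparisons below, while Plxnd1 and Sema7a were called in 6. Free RNA sets a background in droplet data, and barcodes with under 100 UMIs carried Plxnd1 at 374, 374 and 34.5 CPM, Robo4 at 119.7, 101 and 3.31, and Slit3 at 45.2, 47.997 and 33.6. Robo4 stood at 2.38, 0 and 0.509 in mpMSCs and 0.336, 0 and 0.175 in osteoblasts, in each library below its level in free RNA.

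The first comparison asked which guidance genes separate the vessels of the bone from its mesenchyme, and set the 3 endothelial subtypes (6 sums) against mpMSCs, Lepr+ stromal cells and osteoblasts (9 sums). Of the 45 tested genes 33 were called, 15 higher in ECs and 18 lower. Among all genes 23.8% were higher and 28.5% lower, and the median log2 fold change was -0.78 for the guidance genes and -0.08 for all genes. Plain library totals in place of TMM gave 16 higher and 17 lower with a median of all genes of 0.18. Pooled ratios below divide the UMIs of all sums of each group, with no library term and no equal weight for subtypes, so they can differ from fitted values. Of the 56289123 stromal UMIs in these ratios, the Pdgfra-GFP library gave 7855009 in mpMSCs, 16104552 in Lepr+ stromal cells and 17155613 in osteoblasts. It gave none of the endothelial UMIs. Every fold change named here rests on endothelial sums of 2 libraries, and the 14 named genes stayed past the threshold without any 1 library.

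Among the ligands, 4 semaphorins were higher in ECs by more than 4 on the log2 scale, including the secreted Sema3f and Sema3g, which act on neuropilin-bearing cells. Sema3f had a lowest, median and highest level of 70.1, 93.9 and 113 CPM in ECs and of 0, 0.435 and 1.59 in stromal cells (log2 fold change 6.52 ± 0.25, edgeR adjusted p = 3.46e-22). The transmembrane Sema6a had 117, 206 and 239 in ECs and 1.30, 4.12 and 11.1 in stromal cells (log2 fold change 4.57 ± 0.19, edgeR adjusted p = 1.72e-19). Sema6b, of the same class, had 18.8, 34.6 and 56.1 against 0, 0.764 and 2.18 (log2 fold change 4.86 ± 0.34, edgeR adjusted p = 5.26e-15). The groups did not overlap for any of these genes. Sema3g differed among the ECs themselves, with 2.12, 12.8 and 294 in ECs and 0, 0.186 and 1.19 in stromal cells (log2 fold change 5.32 ± 0.49, edgeR adjusted p = 1.57e-11). Its fold change was 7.05 without metaphyseal replicate 1 and 4.69 without replicate 2; Sema3f gave 7.15 without replicate 2 and Sema6b 5.72 without the Pdgfra-GFP library.

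Other semaphorins stood on the mesenchymal side. Sema5a, a membrane semaphorin with thrombospondin repeats, gave 5 UMIs in all endothelial sums, at 0, 0.179 and 1.27 CPM, against 30.7, 51.4 and 95.3 in stromal cells (log2 fold change -8.47 ± 0.37, edgeR adjusted p = 2.13e-20). The pooled level in stromal cells was 103 times (95% interval 44.02 to 317) that in ECs. Arterial ECs gave no Sema5a UMIs but weigh as much as the other subtypes in the fit. The fitted fold change of Sema5a exceeds its pooled interval, and its standard error does not cover this. Sema4d, a plexin-B ligand, gave 3 endothelial UMIs and had 1.70, 10.7 and 45.3 in stromal cells (log2 fold change -5.72 ± 0.63, edgeR adjusted p = 5.94e-10), a pooled ratio of 66.5 times (95% interval 22.7 to 323). Sema3b, secreted, had 0, 0.933 and 2.09 in ECs against 0.242, 8.33 and 78.6 in stromal cells (log2 fold change -3.47 ± 0.59, edgeR adjusted p = 3.56e-05), a pooled ratio of 29.9 times (95% interval 16.2 to 62.4). Sema5a and Sema4d did not overlap, but Sema3b did, with 0.242, 0.498 and 3.60 in Lepr+ stromal cells and 78.6, 70.1 and 63.2 in osteoblasts. The fold changes moved to other values without a library for Sema5a (-9.73 without metaphyseal replicate 1), Sema4d (-6.53 without replicate 2) and Sema3b (-5.32 without replicate 1).

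Among plexins the endothelial side held Plxnd1 and Plxna4. Plxnd1 (chr6:115954811-115995005, GRCm38, minus strand) had a lowest, median and highest level of 242, 638 and 699.98 CPM in ECs and 2.51, 59.5 and 136 in stromal cells (log2 fold change 3.38 ± 0.13, edgeR adjusted p = 3.86e-23). Plxna4 had 18.8, 40.2 and 67.6 against 0, 0.747 and 3.36 (log2 fold change 4.52 ± 0.35, edgeR adjusted p = 1.23e-13). Neither overlapped. On the mesenchymal side Plxnb1, a Sema4d receptor, was called with Plxna1 and Plxnb2. Plxnb1 gave 20 endothelial UMIs, and its pooled level was 6.31 times (95% interval 4.05 to 10.4) higher in stromal cells (log2 fold change -4.88 ± 0.46, edgeR adjusted p = 2.19e-11). The fit weighs the endothelial subtypes equally, also a subtype without Plxnb1 UMIs, and its fold change exceeds the pooled ratio.

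Ephrins and Eph receptors stood on both sides. Efna1 was higher in ECs at 119.6, 133 and 566 CPM against 15.02, 24.5 and 27.4 (log2 fold change 2.999 ± 0.11, edgeR adjusted p = 7.18e-24). Efnb2, the arterial ephrin (chr8:8617434-8661242, minus strand), stood at 30.2, 106 and 504 against 1.06, 3.18 and 9.68 (log2 fold change 4.26 ± 0.17, edgeR adjusted p = 1.91e-22). Efna2, Efna4, Efna5 and Efnb1 were lower in ECs, and Efnb1 differed least, with 69.99, 85.7 and 104 against 59.7, 129 and 151 (log2 fold change -0.73 ± 0.12, edgeR adjusted p = 2.47e-06) and overlapping groups. Efna1 and Efnb2 did not overlap. Of the receptors, Ephb4 (chr5:137350109-137378669, plus strand), the ephrin-B2 receptor of veins, had 125, 171 and 198 in ECs and 3.03, 19.3 and 27.4 in stromal cells (log2 fold change 3.23 ± 0.12, edgeR adjusted p = 1.24e-23). Ephb1 had 3.13, 10.1 and 33.3 against 0, 0 and 0.747 (log2 fold change 5.45 ± 0.70, edgeR adjusted p = 5.61e-08). Its pooled ratio was 141 times (95% interval 67.1 to 356) on 7 stromal UMIs, and its fold change was 4.11 without metaphyseal replicate 1 and 8.71 without replicate 2. Epha3 was not seen in any endothelial sum and had 3.97, 8.13 and 24.1 in stromal cells, at least 31.5-fold lower in ECs against a floor of 3 UMIs over the group (edgeR adjusted p = 5.37e-12), and the fitted value moved from -8.05 to -7.03 without the Pdgfra-GFP library. Ephb3 was called lower in ECs by the fit, but its pooled levels did not differ beyond counting error, at a ratio of 1.48 times (95% interval 0.810 to 2.97) on 12 endothelial UMIs.

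Both tested Slits stood on the mesenchymal side, and the Robos were split. Slit2 (chr5:47983138-48307733, plus strand) had a lowest, median and highest level of 0, 0.575 and 1.46 CPM in ECs and 31.1, 48.5 and 127 in stromal cells (log2 fold change -7.88 ± 0.33, edgeR adjusted p = 1.18e-21). Slit3 (chr11:35121224-35708507, plus strand) had 0, 0.459 and 6.26 against 36.7, 99.8 and 159 (log2 fold change -7.02 ± 0.25, edgeR adjusted p = 1.37e-23), and neither Slit overlapped. The pooled stromal level was 58.7 times (95% interval 29.7 to 136) the endothelial level for Slit2 and 116 times (95% interval 56.3 to 289) for Slit3. Arterial ECs gave no Slit2 UMIs but weigh as much as the other subtypes in the fit. The fitted fold change of Slit2 exceeds its pooled interval, and its standard error does not cover this. Robo4 (chr9:37401897-37415115, plus strand) had 169, 191 and 303 in ECs and 0, 0.336 and 3.63 in stromal cells and did not overlap (log2 fold change 6.87 ± 0.21, edgeR adjusted p = 4.09e-24). Robo2 (chr16:73891839-74411825, minus strand), a Slit receptor known from neurons and kidney, was the reverse at 0, 1.38 and 6.05 against 4.10, 38.2 and 99.8 (log2 fold change -4.59 ± 0.39, edgeR adjusted p = 1.05e-11), with a small overlap. Robo1 was not called. Without metaphyseal replicate 2 the fold change of Slit3 was -8.85, and that of Robo2 was -5.59 without replicate 1 and -5.94 without replicate 2.

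**Figure D2:**
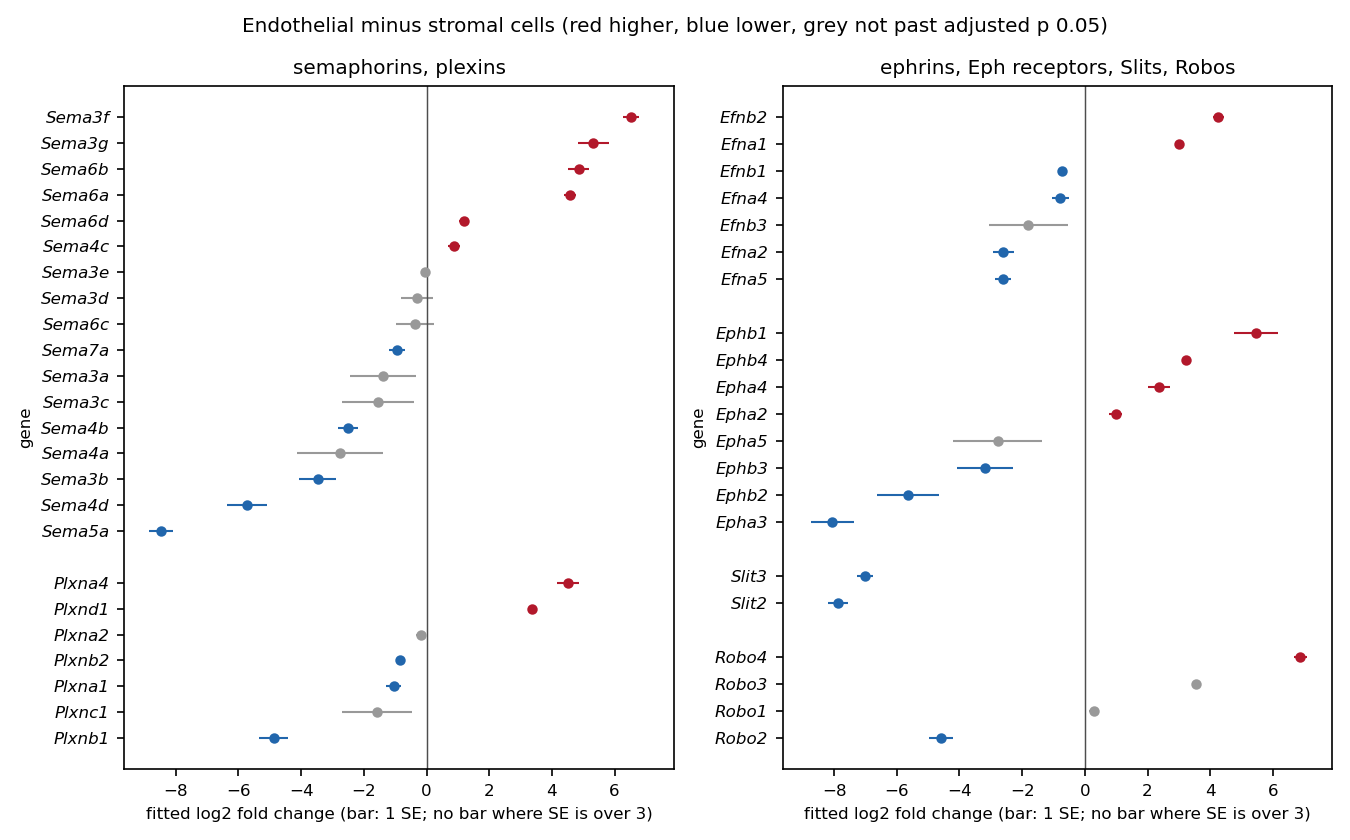
Log2 fold change (x axis) of the 45 tested genes (y axis) between the 3 endothelial subtypes and mpMSCs, Lepr+ stromal cells and osteoblasts. Bars are 1 standard error derived from the edgeR F statistic, left out where it exceeds 3. Red and blue mark genes higher and lower past an adjusted p of 0.05, and grey the rest. Robo4 lies farthest to the right at 6.87 and Sema5a farthest to the left at -8.47.

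The next 2 comparisons asked how these genes differ among vessels, and both used metaphyseal ECs as the reference, so their values are given side by side and are not independent. Arterial ECs differed from metaphyseal ECs in 11 genes, 5 higher and 6 lower. Among all genes 3.98% were higher and 4.6% lower, and the median log2 fold change was -0.89 for the guidance genes and -0.13 for all genes. With DESeq2 size factors 5 were higher and 5 lower. The arterial sums came from 66 and 45 cells, and with 2 sums a group the fit borrows the spread of the other populations. Markers of other cells moved with the arterial sums: the 4 Lepr+ stromal markers, all seen in each sum, came to 1764 and 2417 CPM in arterial and 169.9 and 225 in metaphyseal ECs. Of these Cxcl12 stood at 1472 and 2107 against 52.7 and 76.5, and Lepr at 4.17 and 6.26 against 1.79 and 6.49. The 4 fibroblast markers came to 286 and 473 against 17.9 and 22.9, nearly all of it S100a4 in arterial ECs (284 and 469.7), where Clec3b and Dpt gave 0 UMIs; 2 markers were seen in each arterial sum and 2 and 3 in the metaphyseal ones. The part of these markers in the result was not tested. Without metaphyseal replicate 1, and likewise without replicate 2, 7 genes were called, and 6 of the 11 stayed past the threshold when each library in turn was left out.

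The higher genes were 4 ligands and a receptor. Sema3g (chr14:31217860-31230352, plus strand) stood at 250.5 and 294 CPM in arterial ECs, against 12.5 and 12.97 in metaphyseal ECs (log2 fold change 4.34 ± 0.37, edgeR adjusted p = 5.46e-11). Efnb2 stood at 472 and 504 against 97.8 and 114 (log2 fold change 2.15 ± 0.21, edgeR adjusted p = 4.58e-10). Efna1 stood at 566 and 535 against 129.7 and 119.8 (log2 fold change 2.08 ± 0.17, edgeR adjusted p = 1.07e-11). Both arterial sums exceeded both metaphyseal sums in each of these genes, and the same held for Sema7a at 106 and 125 against 31.9 and 25.1 (log2 fold change 1.93 ± 0.40, edgeR adjusted p = 0.00250), whose adjusted p was 0.556 without metaphyseal replicate 2. The receptor was Epha4, which binds ephrins of both classes, at 37.6 and 46.97 against 2.87 and 3.46 (log2 fold change 3.64 ± 0.48, edgeR adjusted p = 5.12e-07).

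The lower genes were 3 receptors and 3 ligands. Plxnd1 stood at 242 and 257 CPM in arterial ECs against 631 and 699.98 in metaphyseal ECs (log2 fold change -1.48 ± 0.21, edgeR adjusted p = 1.57e-06). Robo1 stood at 16.7 and 12.5 against 57.7 and 73.1 (log2 fold change -2.16 ± 0.34, edgeR adjusted p = 1.05e-05). Ephb4 differed less, at 129 and 125 against 172 and 198 (log2 fold change -0.60 ± 0.18, edgeR adjusted p = 0.0315). Its fold change was -0.76 without metaphyseal replicate 1 and -0.50 without replicate 2, and Ephb4 lost the threshold in both fits. It also lost the threshold with DESeq2's test (adjusted p = 0.138). By edgeR it also lost it with DESeq2 size factors (0.0952), plain totals (0.0866), no filter on low counts (0.0998) and 500 more genes per cell (0.109). The same held without the library block (0.176) and with a stricter gate (0.568, fold change -0.30). Among the ligands, Sema6d stood at 117 and 103 against 227 and 251 (log2 fold change -1.16 ± 0.27, edgeR adjusted p = 0.00497). Sema6a stood at 117 and 119 against 204 and 239 (log2 fold change -0.96 ± 0.27, edgeR adjusted p = 0.0190). DESeq2's test gave an adjusted p of 0.258 for Sema6a. Without the library block the edgeR adjusted p was 0.106 for Sema6d and 0.419 for Sema6a. Both lost the threshold without replicate 1 (adjusted p = 0.144 and 0.204) and without replicate 2 (0.210 and 0.333, all by edgeR). Sema3a gave 0 UMIs in arterial ECs and 16.5 and 16.4 in metaphyseal ECs, at least 4.38-fold lower against the floor of 3 UMIs over the group (edgeR adjusted p = 0.000386, and 0.114 without replicate 1).

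Sinusoidal ECs, the vessels of the marrow cavity, differed from metaphyseal ECs in 10 genes, 6 higher and 4 lower. Among all genes 5.73% were higher and 3.65% lower, and the median log2 fold change was 0.00 for the guidance genes and 0.01 for all genes. The gate markers of these subtypes were not exclusive. The 2 metaphyseal EC markers came to 772 and 737 CPM in sinusoidal ECs against 1558 and 1496 in metaphyseal ECs. The 4 sinusoidal markers came to 700 and 695 in metaphyseal ECs against 3105 and 3052 in sinusoidal ECs. The 4 mural markers moved with the sinusoidal sums, at 427 and 382 CPM against 77.04 and 63.99, with 3 and 2 of them seen in sinusoidal and 3 and 3 in metaphyseal ECs. Kcnj8 alone stood at 424 and 381 against 73.8 and 60.1, and Myh11 gave 0 UMIs in both sinusoidal sums; the part of these markers in the result was not tested. The largest difference was in Sema3a (chr5:13125414-13602565, plus strand), the secreted repellent that signals through neuropilin-1 and plexin-A, at 182 and 162 CPM in sinusoidal ECs against 16.5 and 16.4 in metaphyseal ECs (log2 fold change 3.42 ± 0.23, edgeR adjusted p = 6.75e-14). Next to 35.7, 23.8 and 16.3 in mpMSCs and 10.8, 11.6 and 3.61 in osteoblasts, sinusoidal ECs held the highest Sema3a of the gated populations. Efnb2 was lower, at 30.2 and 35.97 against 97.8 and 114 (log2 fold change -1.65 ± 0.22, edgeR adjusted p = 7.18e-07). There were 4 calls without metaphyseal replicate 1, 2 without replicate 2 and 5 without the library block. Of the 10 genes only Sema3a and Efnb2 stayed past the threshold when each library in turn was left out, and Efnb2 lost it without the library block (edgeR adjusted p = 0.0653).

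The other 8 genes were closer to the limit of these sums. Robo4 stood at 270.2 and 303 against 175 and 187 CPM (log2 fold change 0.70 ± 0.19, edgeR adjusted p = 0.0115). Plxnb2 stood at 62.5 and 65.1 against 35.5 and 39.3 (log2 fold change 0.80 ± 0.20, edgeR adjusted p = 0.00517). Sema6b stood at 56.1 and 51.04 against 25.4 and 35.9 (log2 fold change 0.85 ± 0.26, edgeR adjusted p = 0.0285). These were the abundant genes of the higher group; Efna5 and the Sema7a receptor Plxnc1 rose from few UMIs, by pooled ratios of 6.30 times (95% interval 3.06 to 14.6) and 6.17 times (95% interval 2.54 to 18.1), with adjusted p of 0.000159 and 0.00361 by edgeR. Of the lower genes, Sema7a stood at 2.55 and 3.40 against 31.9 and 25.1 (log2 fold change -3.23 ± 0.55, edgeR adjusted p = 0.000392). Sema3g stood at 2.12 and 3.40 against 12.5 and 12.97 (log2 fold change -2.17 ± 0.51, edgeR adjusted p = 0.00357). Ephb1 stood at 7.65 and 6.32 against 23.7 and 33.3 (log2 fold change -1.96 ± 0.52, edgeR adjusted p = 0.0115). For Sema7a, Sema3g and Efnb2 the order of levels was therefore arterial, metaphyseal, sinusoidal from high to low, with no overlap between neighbours in that order. Without metaphyseal replicate 1 and without replicate 2 the edgeR adjusted p was 0.432 and 0.486 for Robo4, 0.333 and 0.283 for Plxnb2, 0.890 and 0.434 for Sema6b, 0.212 and 0.302 for Plxnc1, 0.363 and 0.113 for Sema3g, and 0.163 and 0.445 for Ephb1. Efna5 and Sema7a lost the threshold without replicate 2 (adjusted p = 0.112 and 0.264).

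**Figure D3:**
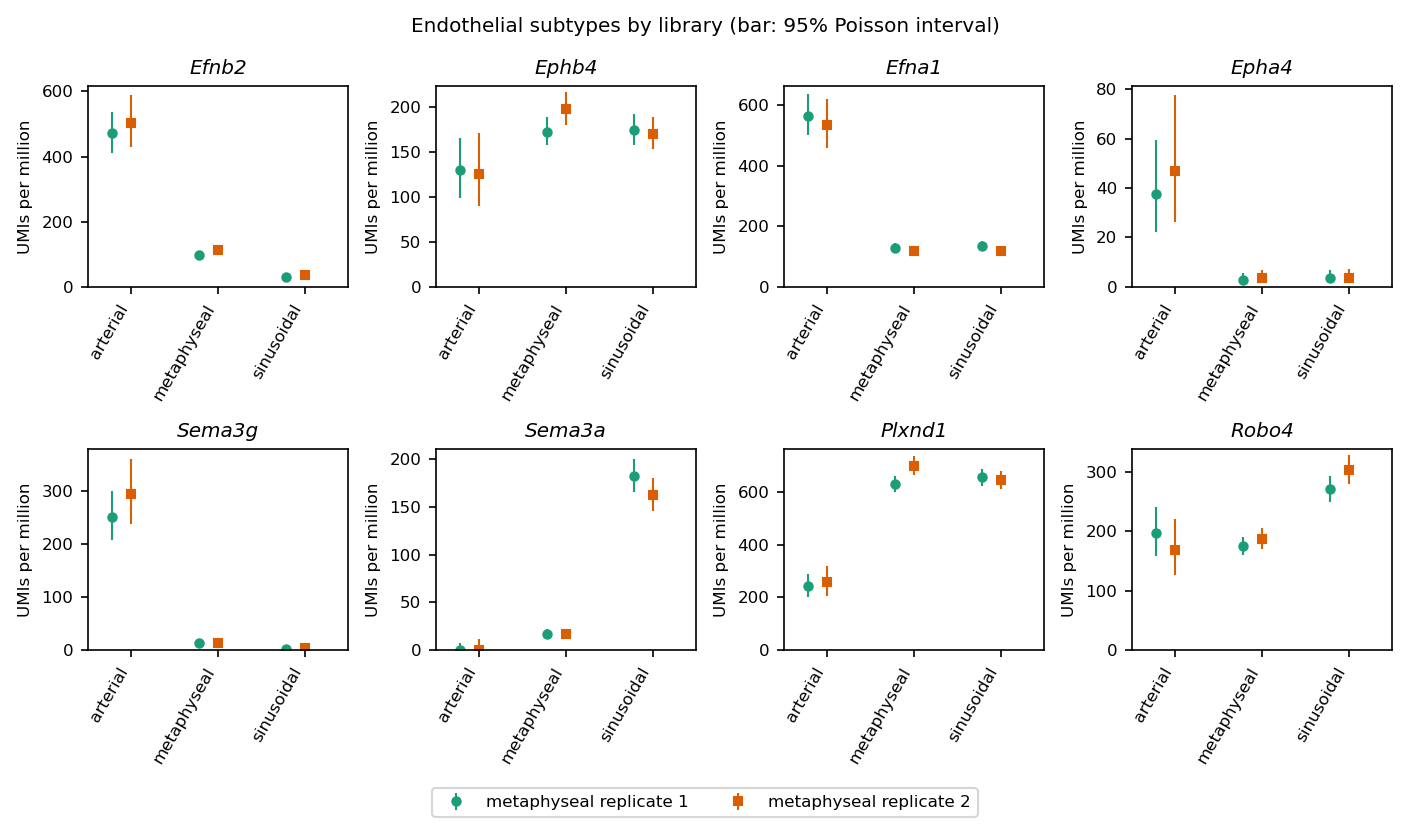
Level in CPM (y axis) of guidance genes in arterial, metaphyseal and sinusoidal ECs (x axis) of the metaphyseal libraries; each point is 1 library and bars are exact 95% Poisson intervals, which cover counting error only. Sema3g and Efnb2 are highest in arterial ECs, and Sema3a is highest in sinusoidal ECs.

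SCs were compared with mpMSCs, the mesenchymal cells that share the metaphysis with them, to find which guidance genes mark the cartilage-resorbing cells. Of the 45 tested genes 4 were called, 1 higher in SCs and 3 lower. Among all genes 3.11% were higher and 3.01% lower, and the median log2 fold change was -0.15 for the guidance genes and -0.05 for all genes. With DESeq2 size factors 2 were higher and 3 lower, and with plain totals 3 and 3. The receptor Plxnd1 stood at 240.1, 136 and 104 CPM in SCs against 59.5, 65.1 and 45.96 in mpMSCs (log2 fold change 1.27 ± 0.20, edgeR adjusted p = 4.07e-05). It was higher in every library and stayed past the threshold without each library in turn, the only 1 of the 4 to do so. Its level in SCs remained below that of metaphyseal ECs (631 and 699.98). Without the library block its adjusted p was 0.0601 by edgeR, and 2 guidance genes were called.

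The lower genes were 2 ligands and a receptor. Efna5, a GPI-anchored ephrin, stood at 20.6, 35.4 and 18.9 CPM in SCs against 53.6, 52.4 and 55.8 in mpMSCs (log2 fold change -1.44 ± 0.29, edgeR adjusted p = 0.00117). Sema5a stood at 20.6, 41.3 and 24.04 against 90.5, 95.3 and 47.99 (log2 fold change -1.33 ± 0.28, edgeR adjusted p = 0.00212). Plxna2, the main plexin of mpMSCs, stood at 130.3, 153 and 87.99 against 155, 267 and 179 (log2 fold change -0.91 ± 0.22, edgeR adjusted p = 0.0103). All 3 were lower in SCs in every library. By edgeR the adjusted p of Efna5 was 0.210 without the Pdgfra-GFP library, that of Sema5a 0.0643 without metaphyseal replicate 2, and that of Plxna2 0.139 without replicate 2 and 0.129 without the library block, and DESeq2 gave 0.231 for Plxna2. The 14 and 16 SCs of the metaphyseal libraries limit what could be seen; a stricter gate gave 7 calls, 4 higher and 3 lower, and no filter on low counts gave 8.

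The 4 genes closest to the threshold without passing it were Robo2, Ephb1, Sema6a and Sema4d. The Slit receptor Robo2 stood at 6.86, 11.8 and 7.16 in SCs against 45.2, 41.3 and 13.4 in mpMSCs (-1.46 ± 0.46 on the log2 scale, adjusted p = 0.0526), by edgeR. Ephb1 gave 8 UMIs in SCs and 2 in mpMSCs, all from the Pdgfra-GFP library (edgeR adjusted p = 0.0530). Sema6a stood at 6.86, 5.90 and 15.9 in SCs against 10.7, 11.1 and 3.95 in mpMSCs (1.39 ± 0.44 on the log2 scale, adjusted p = 0.0563), by edgeR, and was higher in SCs in the Pdgfra-GFP library alone. Sema4d stood at 0, 11.8 and 2.05 in SCs against 10.7, 15.9 and 7.13 in mpMSCs (-1.74 ± 0.60 on the log2 scale, adjusted p = 0.0812), by edgeR, with overlapping levels. The secreted Sema3a stood at 68.6, 58.96 and 23.5 in SCs against 35.7, 23.8 and 16.3 in mpMSCs (0.67 ± 0.26 on the log2 scale, adjusted p = 0.141), by edgeR, and was higher in SCs in each library. Sema7a stood at 68.6, 112 and 94.6 in SCs against 76.2, 58.7 and 50.4 in mpMSCs (0.66 ± 0.31 on the log2 scale, adjusted p = 0.289), by edgeR. For the Slits the fitted differences were small against their error, 0.19 ± 0.20 for Slit2 and -0.25 ± 0.20 for Slit3 on the log2 scale, with adjusted p of 0.736 and 0.599 by edgeR. Plxnd1 is also an endothelial and osteoclast gene, so the markers of those cells were summed. The 4 endothelial markers, of which 3, 2 and 4 were seen in SCs, came to 27.4, 17.7 and 12.8 CPM in SCs and 28.6, 11.1 and 7.89 in mpMSCs. The 5 osteoclast markers came to 219.5, 206 and 234 in SCs and 205, 169.9 and 235 in mpMSCs. Of these, 1, 2 and 3 were seen in SCs and 2, 2 and 4 in mpMSCs. In osteoblasts the same 5 markers came to 232, 214 and 241, so their sum does not measure osteoclast RNA alone. Free RNA held Plxnd1 at 374, 374 and 34.5 CPM, above the SC level in both metaphyseal libraries and below it in the Pdgfra-GFP library, and its part in the difference was not tested. Robo4, with the largest endothelial fold change, gave 0 UMIs in SCs, which allows up to 20.6, 17.7 and 1.53 CPM at 3 UMIs per library. The 4 mural markers, of which 3, 2 and 3 were seen in both populations, moved with the SCs. They came to 542, 171 and 226 against 95.2, 79.4 and 147. Other markers moved the opposite way. The 4 Lepr+ stromal markers came to 1084, 755 and 1316 in SCs against 1286, 2629 and 3035 in mpMSCs. The 4 osteoblast markers came to 219.5, 76.6 and 869 against 646, 646 and 1797. The 4 late osteoblast markers came to 13.7, 11.8 and 44.5 against 63.1, 84.1 and 65.8. The 4 mpMSC markers were higher in SCs than in mpMSCs, at 8560, 13854.5 and 11655 against 6346, 5326 and 6411. The SC gate requires 1 mpMSC marker, so the gates of these populations are not separate. It also limits Lepr+ stromal and osteoblast markers. The part of all these markers in the result was not tested.

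**Figure D4:**
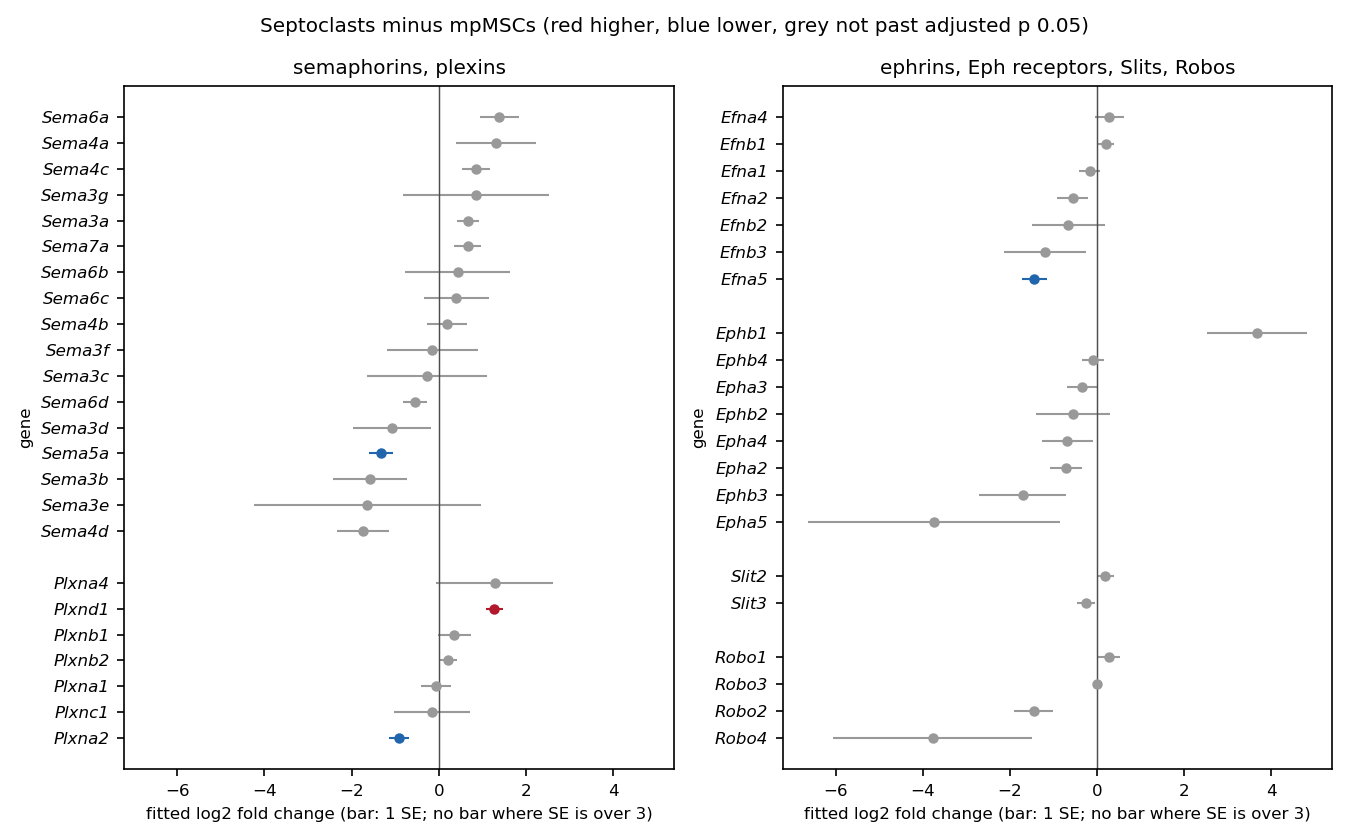
Log2 fold change (x axis) of the 45 tested genes (y axis) between SCs and mpMSCs. Bars are 1 standard error derived from the edgeR F statistic, left out where it exceeds 3. Red and blue mark genes higher and lower past an adjusted p of 0.05, and grey the rest. Plxnd1 at 1.27 is the only called gene to the right, and Efna5, Sema5a and Plxna2 are called to the left.

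Osteoblasts, Lepr+ stromal cells and growth-plate chondrocytes were each compared with the same mpMSC sums as the SCs, so the 4 comparisons share their reference and are not independent. In osteoblasts 27 of the 45 genes were called, 13 higher and 14 lower. Among all genes 18.7% were higher and 19.4% lower, and the median log2 fold change was -0.10 for the guidance genes and -0.05 for all genes. The 10 most abundant genes, led by Col1a1, held 27.3%, 27.9% and 39.4% of the osteoblast UMIs, and the counts depend on how the sums are scaled: with plain library totals, an alternative chosen after seeing the data, the median of all genes moved to -0.84 and 9 guidance genes were higher and 24 lower. The 14 named differences below kept their direction under plain totals except those of Efna1, Epha2 and Robo1. Without the Pdgfra-GFP library 17 genes were called, 8 higher and 9 lower, and without the library block 18.

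The 3 largest increases in osteoblasts among the named genes were in semaphorin ligands. Sema3d (chr5:12383385-12588948, plus strand), secreted, stood at 78.96, 96.02 and 76.1 CPM in osteoblasts against 2.38, 11.1 and 4.07 in mpMSCs (log2 fold change 5.13 ± 0.36, edgeR adjusted p = 7.06e-11). Sema3b stood at 78.6, 70.1 and 63.2 against 8.33, 12.7 and 6.87 (log2 fold change 4.04 ± 0.36, edgeR adjusted p = 1.80e-08). Sema4d (chr13:51685529-51793747, minus strand), better known from osteoclasts, stood at 37.6, 45.3 and 42.96 against 10.7, 15.9 and 7.13 (log2 fold change 3.12 ± 0.26, edgeR adjusted p = 5.12e-12). In every library osteoblasts exceeded mpMSCs for these genes, with no overlap. The Slit receptor Robo2 was higher too, at 99.8, 80.5 and 38.2 against 45.2, 41.3 and 13.4 (log2 fold change 2.06 ± 0.24, edgeR adjusted p = 3.24e-08), with overlapping groups that were both lowest in the Pdgfra-GFP library. Without that library the fold changes were 4.39 for Sema3d, 3.45 for Sema3b and 2.24 for Sema4d, all still past the threshold.

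The remaining named genes of the higher group had similar levels before scaling: Efna1 at 24.5, 24.8 and 25.6 against 27.4, 23.8 and 26.6 CPM (log2 fold change 0.76 ± 0.17, edgeR adjusted p = 0.000567). Epha2, a receptor of A-type ephrins, stood at 25.2, 29.4 and 20.5 against 24.999, 19.1 and 25.2 (log2 fold change 0.73 ± 0.24, edgeR adjusted p = 0.0139). Robo1 stood at 21.5, 25.2 and 13.99 against 23.8, 23.8 and 17.4 (log2 fold change 0.61 ± 0.18, edgeR adjusted p = 0.00810). Their levels overlapped, and the fitted values were -0.056, -0.081 and -0.20 with plain totals. By edgeR the adjusted p was 0.136 for Efna1 without the Pdgfra-GFP library, 0.137 for Epha2 without metaphyseal replicate 1 and 0.0643 without replicate 2, and 0.0657 and 0.138 for Robo1 without replicate 2 and without the Pdgfra-GFP library.

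Osteoblasts had less of the plexins Plxna2 and Plxnd1 and of several other receptors and ligands. Plxna2 stood at 3.70, 6.97 and 5.71 CPM against 155, 267 and 179 (log2 fold change -4.25 ± 0.23, edgeR adjusted p = 1.82e-14). Plxnd1 stood at 6.38, 6.19 and 2.51 against 59.5, 65.1 and 45.96 (log2 fold change -2.94 ± 0.22, edgeR adjusted p = 5.86e-13). Efna5 stood at 5.04, 5.81 and 5.36 against 53.6, 52.4 and 55.8 (log2 fold change -2.50 ± 0.23, edgeR adjusted p = 4.25e-11). Ephb4 stood at 4.37, 5.03 and 3.03 against 21.4, 22.2 and 17.3 (log2 fold change -1.55 ± 0.21, edgeR adjusted p = 1.12e-07). None of these overlapped. Sema7a stood at 14.1, 19.7 and 9.56 against 76.2, 58.7 and 50.4 (log2 fold change -1.41 ± 0.29, edgeR adjusted p = 0.000580). Sema3a stood at 10.8, 11.6 and 3.61 against 35.7, 23.8 and 16.3 (log2 fold change -1.001 ± 0.22, edgeR adjusted p = 0.000440). Sema6d stood at 27.6, 25.9 and 15.2 against 66.7, 90.5 and 49.1 (log2 fold change -0.83 ± 0.22, edgeR adjusted p = 0.00323). By edgeR, Sema7a lost the threshold without metaphyseal replicate 2 (adjusted p = 0.0624), and Sema3a and Sema6d lost it without the library block (0.140 and 0.0580).

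Lepr+ stromal cells, which support blood cells in the marrow, had the same leading Slit, ephrin and plexin as mpMSCs and less of many other guidance genes. Of the 45 genes 20 were called, 5 higher and 15 lower. Without metaphyseal replicate 1, and likewise without replicate 2, there were 13 calls, and a stricter gate also gave 13. Among all genes 18.1% were higher and 15.6% lower, and the median log2 fold change was -0.20 for the guidance genes and 0.09 for all genes. Plxnd1 stood at 136, 135 and 63.5 CPM against 59.5, 65.1 and 45.96 in mpMSCs (log2 fold change 0.78 ± 0.17, edgeR adjusted p = 0.000479). Sema6d stood at 151, 145 and 64.6 against 66.7, 90.5 and 49.1 (log2 fold change 0.69 ± 0.20, edgeR adjusted p = 0.00833). Sema4c, a plexin-B2 ligand, stood at 32.5, 31.9 and 24.5 against 10.7, 25.4 and 13.6 (log2 fold change 0.83 ± 0.23, edgeR adjusted p = 0.00418). In each library Lepr+ cells exceeded mpMSCs for Plxnd1, Sema6d and Sema4c, but the levels of the groups overlapped for each of these genes. Free RNA held Plxnd1 at 374, 374 and 34.5 CPM, Sema6d at 135, 146 and 27.3, and Sema4c at 42.4, 49.8 and 13.1. The 4 endothelial markers came to 62.03, 38.6 and 11.5 in Lepr+ cells against 28.6, 11.1 and 7.89 in mpMSCs. The part of free RNA and of these markers in the differences was not tested. By edgeR, Sema6d and Sema4c lost the threshold without metaphyseal replicate 1 (adjusted p = 0.218 and 0.0922).

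The lower genes of Lepr+ stromal cells were led by Sema3a and by the receptors Robo2, Epha3 and Epha2. Sema3a stood at 5.82, 3.73 and 2.05 CPM against 35.7, 23.8 and 16.3 in mpMSCs (log2 fold change -2.88 ± 0.24, edgeR adjusted p = 4.65e-12). Robo2 stood at 4.12, 4.98 and 4.10 against 45.2, 41.3 and 13.4 (log2 fold change -2.53 ± 0.29, edgeR adjusted p = 2.91e-08; -3.30 without the Pdgfra-GFP library). Epha3 stood at 7.51, 5.48 and 3.97 against 21.4, 23.8 and 24.1 (log2 fold change -2.29 ± 0.27, edgeR adjusted p = 2.46e-08). Epha2 stood at 7.51, 5.23 and 7.33 against 24.999, 19.1 and 25.2 (log2 fold change -1.89 ± 0.26, edgeR adjusted p = 3.63e-07). None of these 4 overlapped. Of the Slits only Slit2 was called, at 48.5, 45.8 and 35.4 against 127, 111 and 76.8 (log2 fold change -1.32 ± 0.17, edgeR adjusted p = 6.44e-08), and Slit3 stood at 138, 137 and 86.9 against 146, 159 and 99.8 (-0.22 ± 0.16 on the log2 scale, adjusted p = 0.301 by edgeR). Sema7a stood at 36.8, 40.8 and 17.8 against 76.2, 58.7 and 50.4 (log2 fold change -1.13 ± 0.27, edgeR adjusted p = 0.00279). Efna1 stood at 15.02, 16.2 and 17.8 against 27.4, 23.8 and 26.6 (log2 fold change -0.69 ± 0.18, edgeR adjusted p = 0.00245). Sema7a lost the threshold without metaphyseal replicate 2 (adjusted p = 0.115) and Efna1 without replicate 1 (0.0545).

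Growth-plate chondrocytes had less of both Slits and of Plxna2 than mpMSCs, and more Sema3d and Efna1. Of the 45 genes 30 were called, 11 higher and 19 lower. Among all genes 18.2% were higher and 18.8% lower, and the median log2 fold change was -0.77 for the guidance genes and -0.04 for all genes; plain totals gave 9 genes higher and 24 lower and a median of all genes of -0.40. Slit3 stood at 0, 2.86 and 3.11 CPM against 146, 159 and 99.8 in mpMSCs (log2 fold change -4.87 ± 0.26, edgeR adjusted p = 2.52e-17) and Slit2 at 5.06, 2.86 and 2.18 against 127, 111 and 76.8 (log2 fold change -4.70 ± 0.27, edgeR adjusted p = 2.14e-16). Of the receptors, Plxna2 stood at 6.75, 1.43 and 5.06 against 155, 267 and 179 (log2 fold change -4.80 ± 0.27, edgeR adjusted p = 1.23e-14). Robo2 stood at 0, 1.43 and 0.934 against 45.2, 41.3 and 13.4 (log2 fold change -3.92 ± 0.44, edgeR adjusted p = 1.51e-08). Epha3 stood at 1.69, 0 and 1.87 against 21.4, 23.8 and 24.1 (log2 fold change -3.22 ± 0.37, edgeR adjusted p = 7.62e-09). Every chondrocyte sum lay below every mpMSC sum in these 5 genes. The same held for Sema3a, at 0, 0 and 0.856 against 35.7, 23.8 and 16.3 (log2 fold change -4.0004 ± 0.36, edgeR adjusted p = 1.41e-11), and for Sema6d, at 8.43, 7.16 and 2.18 against 66.7, 90.5 and 49.1 (log2 fold change -3.78 ± 0.33, edgeR adjusted p = 2.12e-10). Without the Pdgfra-GFP library the fold changes were -6.29 for Slit3, -5.45 for Plxna2, -5.39 for Robo2, -4.42 for Epha3, -8.20 for Sema3a and -3.05 for Sema6d, all still past the threshold. For Sema3a the chondrocyte sums left in that fit held 0 UMIs, so the size of its fitted value is not a measured ratio. With only the mpMSC and chondrocyte sums in the fit, 15 genes were called, 2 higher and 13 lower.

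The 11 higher genes included ligands and receptors. Sema3d stood at 21.9, 75.9 and 64.9 CPM against 2.38, 11.1 and 4.07 (log2 fold change 4.10 ± 0.38, edgeR adjusted p = 5.62e-09; 3.22 without the Pdgfra-GFP library), so that osteoblasts and chondrocytes both had more of it than mpMSCs. Efna1 stood at 28.7, 42.9 and 38.7 against 27.4, 23.8 and 26.6 (log2 fold change 0.90 ± 0.19, edgeR adjusted p = 0.000155), and its adjusted p was 0.0684 without the Pdgfra-GFP library. By mean level Ephb2 was the leading Eph receptor of these cells, though Epha4 lay above it in metaphyseal replicate 1 and the Pdgfra-GFP library. Ephb2 stood at 10.1, 32.9 and 8.09 against 9.52, 1.59 and 2.42, with overlapping levels (log2 fold change 2.21 ± 0.48, edgeR adjusted p = 0.000309). Efnb2, an ephrin it binds, stood at 15.2, 35.8 and 7.24 against 5.95, 3.18 and 1.53 (log2 fold change 2.66 ± 0.35, edgeR adjusted p = 5.51e-08). Sema3c and Epha5 came from few mpMSC UMIs, with pooled ratios of 15.96 times (95% interval 6.65 to 50.03) and 11.1 times (95% interval 4.93 to 30.96). Efnb2, Sema3c and Epha5 were outside the rule for named genes and were picked after their values were seen.

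**Figure D5:**
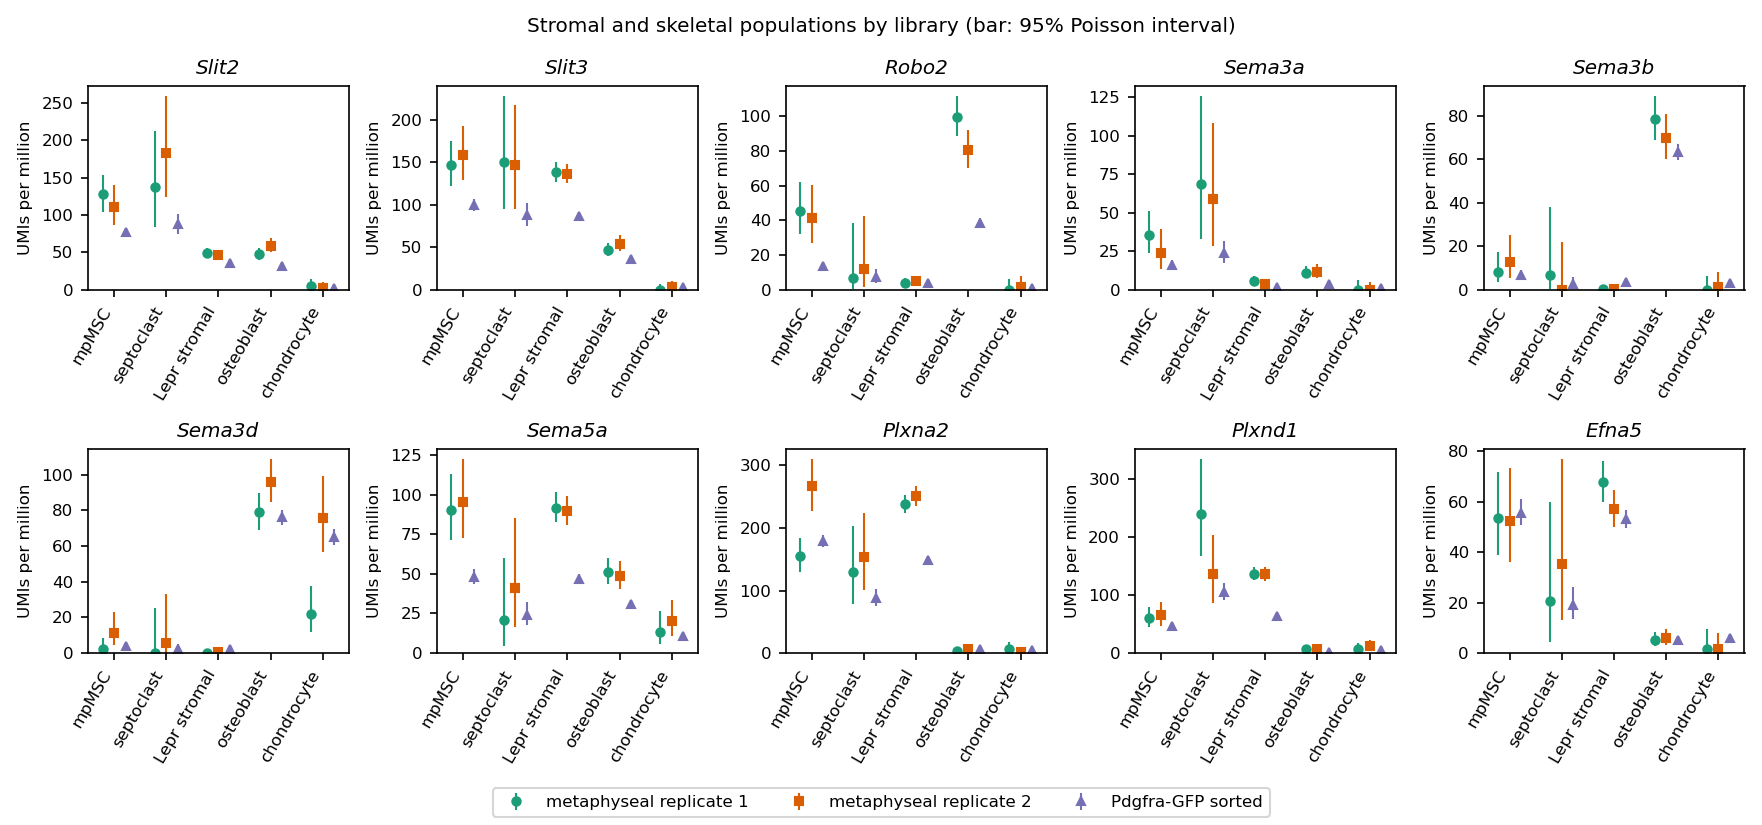
Level in CPM (y axis) of guidance genes in the mesenchymal populations (x axis); each point is 1 library and bars are exact 95% Poisson intervals, which cover counting error only. Sema3d is high in osteoblasts and chondrocytes and Plxna2 in mpMSCs, SCs and Lepr+ stromal cells.

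The partners of these families were counted in 3 further lists: the 2 neuropilins, 19 netrins and netrin receptors (10 tested), and 36 transducers of plexin, Eph and Robo signals (34 tested). Between ECs and stromal cells 1 neuropilin was higher and 1 lower, 3 netrin genes were higher and 5 lower, and 17 transducers were higher and 14 lower, beside the backgrounds given above. In SCs against mpMSCs these counts were 1 and 0, 1 and 1, and 0 and 2, and in osteoblasts they were 1 and 1, 3 and 2, and 14 and 8. In Lepr+ stromal cells they were 1 and 0, 2 and 5, and 4 and 6, and in chondrocytes 0 and 1, 4 and 3, and 7 and 13. Arterial ECs had 0 and 1, 3 and 2, and 3 and 4, and sinusoidal ECs 0 and 0, 2 and 2, and 2 and 4, each against metaphyseal ECs.

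The neuropilins, co-receptors of class 3 semaphorins, marked different mesenchymal cells. Nrp1 stood at 391, 265 and 287 CPM in SCs and 608, 576 and 477 in Lepr+ stromal cells against 79.8, 77.8 and 90.01 in mpMSCs, with no overlap; the results were log2 fold change 1.75 ± 0.25, edgeR adjusted p = 9.40e-05 for SCs and log2 fold change 2.60 ± 0.23, edgeR adjusted p = 1.09e-08 for Lepr+ cells. Nrp2 stood at 668, 639.98 and 445 in osteoblasts against 229.8, 302 and 164 in mpMSCs (log2 fold change 2.10 ± 0.27, edgeR adjusted p = 7.45e-06). SCs and Lepr+ stromal cells therefore both had more Plxnd1 and more Nrp1 than mpMSCs, measured against the same mpMSC sums. Among ECs, Nrp2, known from veins and lymphatics, stood at 58.4 and 46.97 in arterial and 376 and 365 in metaphyseal ECs (log2 fold change -2.84 ± 0.43, edgeR adjusted p = 0.000201), and the netrin receptor Unc5b at 319 and 326 and 10.4 and 12.97 (log2 fold change 4.73 ± 0.23, edgeR adjusted p = 2.15e-18). The arterial and metaphyseal sums did not overlap for either gene.

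Among the netrin genes, the largest changes in SCs were in a receptor and its ligand. The netrin receptor Unc5c was seen at 36.9, 39.7 and 20.9 in mpMSCs, 39.3, 29.8 and 18.8 in osteoblasts and 6.86, 0 and 5.63 in SCs, and was lower in SCs than in mpMSCs (log2 fold change -2.28 ± 0.42, edgeR adjusted p = 0.000472). Its ligand Ntn1 was called higher in SCs (edgeR adjusted p = 5.75e-06) at 0, 5.90 and 36.3 against 3.57, 3.18 and 2.29, where 71 of the 72 SC UMIs came from the Pdgfra-GFP library, so the groups overlapped. The neuropilins were described because they complete the class 3 receptor and were picked with their values known.

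Some called genes outside the rule for named genes, also picked after their values were seen, add to the mesenchymal ligands and receptors. Sema4b stood at 17.8, 16.3 and 15.4 CPM in osteoblasts and 12.4, 12.9 and 12.8 in Lepr+ stromal cells against 4.76, 3.18 and 5.98 in mpMSCs, with no overlap (log2 fold change 2.40 ± 0.27, edgeR adjusted p = 4.31e-09 for osteoblasts, and log2 fold change 1.19 ± 0.28, edgeR adjusted p = 0.000878 for Lepr+ cells). Efnb1, the main ephrin of the mesenchyme, was lower in chondrocytes, at 20.2, 34.4 and 19.8 against 104, 148 and 149.97 (log2 fold change -2.22 ± 0.20, edgeR adjusted p = 6.21e-12). Efna5 stood at 1.69, 1.43 and 5.84 against 53.6, 52.4 and 55.8 (log2 fold change -3.01 ± 0.27, edgeR adjusted p = 1.06e-11). Every chondrocyte sum lay below every mpMSC sum for both ephrins. Epha4 stood at 15.2, 8.59 and 17.1 in chondrocytes and 0.336, 0.774 and 0.641 in osteoblasts against 2.38, 1.59 and 6.37 in mpMSCs, higher in the first (log2 fold change 2.06 ± 0.37, edgeR adjusted p = 2.66e-05) and lower in the second (log2 fold change -2.07 ± 0.48, edgeR adjusted p = 0.000677). The plexin-B receptor Plxnb1 stood at 19.2, 20.1 and 9.85 in osteoblasts against 9.52, 15.9 and 9.04 (log2 fold change 1.21 ± 0.25, edgeR adjusted p = 0.000214), with overlapping levels.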

How the data were processed

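UMI counts of 3 droplet libraries were analysed. Per the labels and the methods, the authors trimmed reads with fastp 0.20, aligned them with STARsolo of STAR 2.7.3a to mm10 (genes of Gencode M23 plus H2B-GFP), and deposited raw counts per gene and barcode, with no cell filter and no normalization. Antibody depletion, sorting and barcode handling differ between the 2 metaphyseal libraries and the Pdgfra-GFP library, so library is a block in the fit. ECs came from the metaphyseal libraries only, while the stromal cells set against them came from all 3. That comparison is therefore only partly within libraries. Gene positions were read on GRCm38.

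Cells were kept with at least 1500 genes (metaphyseal) or 1000 genes (Pdgfra-GFP), at most 15% mitochondrial and 30% ribosomal UMIs, as the methods state. EmptyDrops was not used here. A marker was raised in a cell when its count lay above the upper 0.001 tail of a Poisson distribution. The distribution took 10% of the UMIs of the cell as free RNA. At least 2 raised markers of a fixed list assigned a cell, with added conditions for some populations. SCs needed 2 of Sstr2, Cd55, Otos, Mmp9 and Cotl1, including Sstr2, Otos or Mmp9, 1 mpMSC marker, and few Lepr+ stromal or osteoblast markers. ECs needed 2 of Pecam1, Cdh5, Emcn and Egfl7. Their subtype took 1 arterial marker (Gja4, Gja5, Bmx), 1 metaphyseal marker (Aplnr, Ramp3) or 2 sinusoidal markers (Stab1, Stab2, Mrc1, Flt4). Markers of the other subtypes were limited. Cells raised for more than 1 lineage (95, 64 and 360) were left out as mixed. Scrublet in scanpy 1.11.5 called 25, 18 and 184 doublets, under the 1.91%, 1.61% and 9.06% assumed, and these were kept. Gate limits were set after cell numbers and marker levels were seen and before any guidance gene was looked at. The members and gene lists were chosen with earlier results of these data known.

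Counts were summed per library and population of at least 10 cells, giving 31 sums of 14 populations. Endothelial, mural and blood sums came from the metaphyseal libraries only. The sums were tested with edgeR 4.0.16 in R 4.3.3 (quasi-likelihood, TMM, robust, filterByExpr; 15 residual degrees of freedom) with library as a block and Benjamini-Hochberg adjustment over 13334 genes at 0.05. The code was tested on simulated data. The block is in the main design because all populations of a library come from 1 suspension, and deviations of its sums from the group means correlated across genes, with a median r of 0.144 and 0.153 for the metaphyseal libraries (replicate 1, then 2) and 0.444 for the sorted cells. Intervals are exact at 95% and, like the floor of 3 UMIs, cover counting error only. Named genes are all called members where at most 14 were called, otherwise the 7 with the largest fold change in each direction among those with at least 20 CPM in the higher population, plus the leading member of each family in each population and every member under 10 UMIs in all cells. Alternatives were DESeq2 1.42.0 (test, size factors), no filter on low counts, no block, each library left out, a stricter gate, doublets removed, 500 more genes per cell, at least 30 cells per sum, sorted endothelial and blood sums included, only the populations compared, and plain library totals, which was added after seeing the data. Some results for the transducer list are not reported here.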

Additional observations from a re-analysis of the deposited data

How the results depend on the processing

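Of 135 calls of members, 75 kept their direction and stayed past the threshold under every alternative in which the gene was tested. A gene not tested under an alternative gave no value there and was not counted as lost. Among the 1848 alternative values 164 lost the threshold and 3 turned. The 3 were in osteoblasts with plain library totals, chosen after seeing the data: Efna1 at -0.056, Epha2 at -0.081 and Robo1 at -0.20. Without the replicate block, 29 calls lost the threshold, and 2 members in place of 4 were called in SCs and 5 in place of 10 in sinusoidal ECs. DESeq2's test lost 16 calls and the stricter gate 18. In SCs, no filter on low counts gave 8 and the stricter gate 7. The stricter gate gave 13 in place of 20 in Lepr+ stromal cells. With only the populations compared in the fit, chondrocytes gave 15 in place of 30 and sinusoidal ECs 16 in place of 10. Leaving out each library gave 30 to 32 members for ECs against stromal cells (33 with all), 3 to 4 for SCs (4), 17 to 24 for osteoblasts (27), 13 to 18 for Lepr+ stromal cells (20), 21 to 30 for chondrocytes (30), 7 to 13 for arterial ECs (11) and 2 to 15 for sinusoidal ECs (10). Of the 4 SC calls only 1 stayed past the threshold when each library in turn was left out, so the steady SC count covers different genes. The causes of these shifts were not tested. Leaving out a metaphyseal replicate leaves 1 sum per endothelial subtype, which is then assumed to vary like the other populations. Depth limits the SC sums most, since the metaphyseal libraries held 14 and 16 SCs.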
